A study of Homo sapiens with 6 samples.

Results

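Integrins and the proteins of focal adhesions were examined as a set of 42 genes, the products of which hold a cell to the matrix and pass its pull to the actin cytoskeleton. The genes were chosen by name, and a probe was assigned to a gene where the annotation of the array gave a single gene symbol equal to it, which gave 75 of the 29377 probes and 40 of the 42 genes. LAMA3 and CRK were not analysed here. The set holds 13 integrin subunits, 5 laminin chains, the tetraspanin CD151 and 23 cytoplasmic proteins. RNA came from SNU638, a human gastric cancer cell line, on 6 Illumina bead chips. The 3 LAP2β samples are of a stable line overexpressing LAP2β, an inner nuclear membrane protein, which was made by co-transfection of a LAP2β plasmid driven by the CMV promoter with a neomycin resistance plasmid and selection with G418. The 3 mock samples are of cells established at the same time with the empty vector, and both were grown in RPMI1640 with serum. The paper names a clone where it describes overexpression in SNU638 and PANC1 cells, without making clear whether this covers the SNU638 line, and it is not stated whether the samples of a group were cultured separately. The p-values therefore cover the spread between these arrays, which may be technical.

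An integrin is a receptor of an α and a β subunit that binds a matrix protein outside the cell. Its partners set the ligand: ITGA2 pairs with ITGB1 to bind collagen, ITGA5 with ITGB1 to bind fibronectin, and ITGA6 with ITGB1 or ITGB4 to bind laminin. Inside the cell, talins and kindlins bind the β tail and activate the receptor, vinculin and tensins link it to actin, and paxillin and the focal adhesion kinase PTK2 gather the signalling proteins. In epithelium ITGB4 is part of the hemidesmosome, which anchors keratin filaments to laminin.

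Signals were quantile normalized and log2 transformed, and a signal below is on that log2 scale. A probe counted as above background on an array at a detection p-value under 0.01, and probes above background on at least 3 of the 6 arrays, 13323 in all, were tested with limma. A gene was read from its brightest tested probe, which gave 9905 genes. The median signal before normalization was 189.5 to 195.8 on the LAP2β arrays and 192.2 to 199.9 on the mock arrays, between 44.1% and 46.6% of probes were above background, and no pair of arrays correlated below 0.983. For TMPO, which encodes the LAP2 proteins, the tested probe changed by -0.03 on the log2 scale (limma adjusted p = 0.943). That probe is not annotated to the β transcript, and the probe that is annotated to it was not above background on any array. All 5 epithelial markers (KRT8, KRT18, KRT19, EPCAM, CDH1) were above background on all 6 arrays, as was 1 of 4 leukocyte markers (CD68), against 0 of 4 fibroblast and 0 of 3 endothelial markers. CDH1, the E-cadherin gene, differed by 0.74 on the log2 scale (limma adjusted p = 0.0579, and 0.000308 in the paired fit) and KRT8, a keratin gene, by 0.42 (limma adjusted p = 0.126, and 0.00943 in the paired fit), and their part in the values below was not tested. CD14, a marker of myeloid cells, was above background on 2 LAP2β arrays and 0 mock arrays. Of all probes tested, 146 (1.10%) rose and 74 (0.555%) fell, and a fit pairing arrays of the same replicate number called 452 (3.39%) higher and 369 (2.77%) lower. In the unpaired fit 66.4% of the calls were higher, against 21.2% of 537 with median scaling and 20.9% of 521 without normalization between arrays. In those 2 settings the median log2 fold change of all probes moved to -0.13 and -0.14.

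In the LAP2β line the tensin gene TNS3 rose and the collagen receptor subunit ITGA2 fell (limma, adjusted p under 0.05), while the other 30 of the 32 adhesion genes tested did not pass. Across all genes 1.17% rose and 0.616% fell by the same rule, against 3.12% of the 32 in each direction, which is a single gene. At an unadjusted p under 0.05, 5 of the 32 were higher and 5 lower, against 6.68% and 7.09% of all genes, and by the methods' t-test unadjusted 3 were higher and 5 lower, against 6.07% and 6.63% of all genes. The median log2 fold change of the 32 genes was 0.03, against -0.01 over all genes. Of the 32, 20 lay within 0.2 of 0, a smaller share than the 8014 of all 9905 genes. The median absolute log2 fold change was 0.14 for the 32, against 0.10 over all genes. In 4 genes (TNS3, LAMB1, LPXN, PARVA) each of the LAP2β signals exceeded each of the mock signals, as in 9.27% of all genes, and in 5 (ITGA2, ITGA5, ITGA6, PARVB, ILK) they lay below, as in 10.5% of all genes. In the paired fit, ITGB4, LAMB1 and LPXN passed the test as higher too, and ITGA6 and LAMB3 as lower, which made 4 higher and 3 lower, against 3.55% and 2.88% of all genes. For a 3 against 3 comparison of a single gene, the exact permutation test (two-sided) cannot give a p below 0.1, which TNS3 and ITGA2 both reached. ITGA5, ITGA6, LAMB1, PARVA, PARVB and LPXN reached it too. Any gene whose groups do not overlap must reach it, also ILK, for which it was not run. It thus repeats the counts without overlap given above, with their shares of all genes, and does not set TNS3 and ITGA2 apart.

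**Figure D1:**
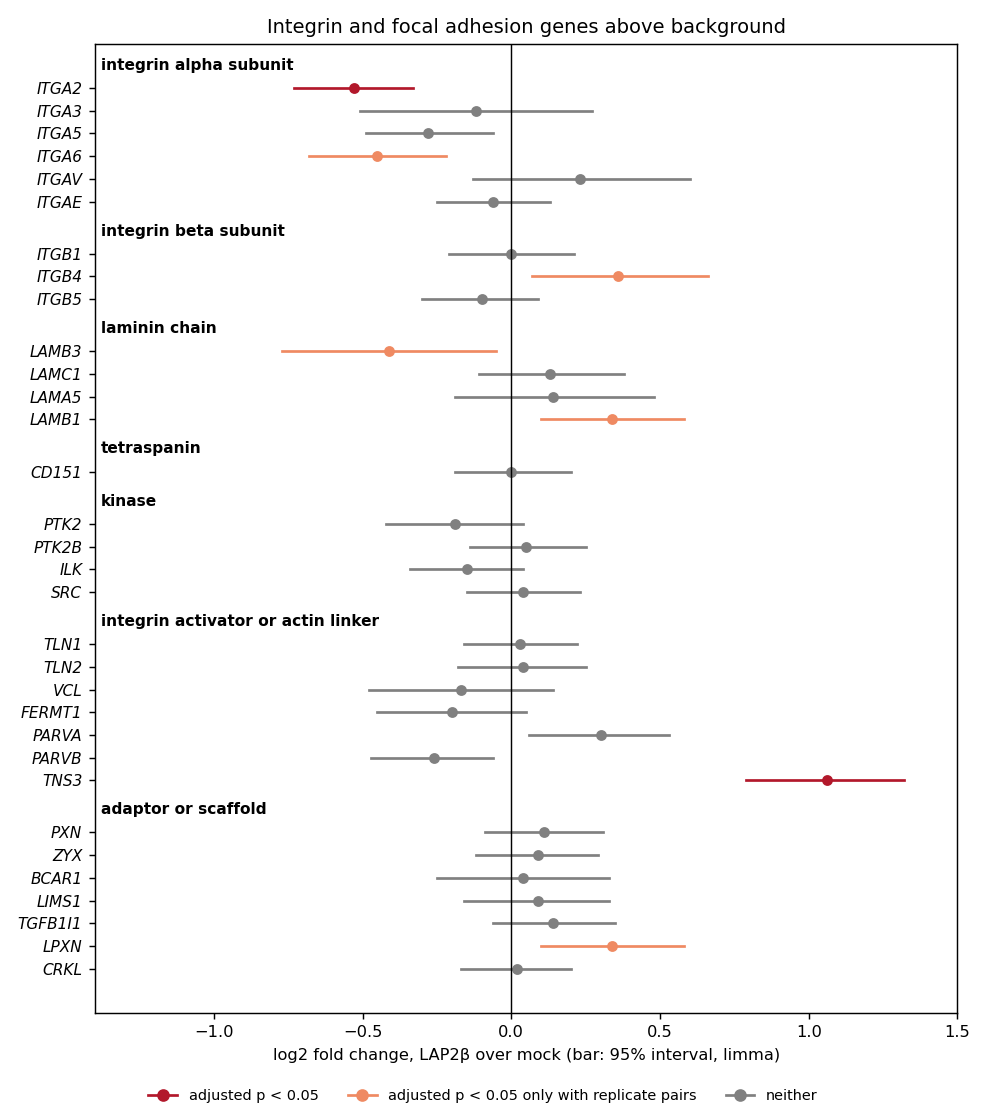
Log2 fold change, LAP2β over mock, of the 32 adhesion genes tested, in rows by role, with the 95% interval from limma as bars. TNS3 at 1.06 and ITGA2 at -0.53 are the genes past the adjusted threshold, and 5 more (in orange) did not pass it in the unpaired fit shown but did in the paired fit.

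TNS3 encodes tensin-3, which binds integrin β tails and actin and carries domains for phosphotyrosine signalling. Its log2 signal was 12.07, 11.79 and 11.60 on LAP2β arrays 1 to 3, against 10.80, 10.69 and 10.81 on mock arrays 1 to 3. The groups were far apart, with the lowest LAP2β array above the highest mock array, and the spread was wider among the LAP2β arrays (11.82 ± 0.24, SD, n = 3) than among the mock arrays (10.76 ± 0.07, SD, n = 3). TNS3 rose 2.08-fold (1.06 on the log2 scale, SE 0.12, limma adjusted p = 9.31e-04). It differed by 1.28, 1.10 and 0.79 on the log2 scale between same-numbered arrays. The log2 fold change ran from 0.87 to 1.16 over the 20 alternatives tried, and TNS3 passed the test in 19 of them, the exception being the methods' t-test after adjustment (adjusted p = 0.153, and 3.14e-05 to 0.153 over all). TNS3 was read from 1 probe. The other tensins had no level to compare, since the probes of TNS1 and TNS4, and the 4 of TNS2, were not above background on any array.

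The genomic sequence before the TNS3 start is shown because TNS3 was the gene of the set that rose. It is the 250 bases before the most upstream of 3 annotated starts, on the minus strand of GRCh38.p14 at chr7:47582587-47582836, from RefSeq, 5′ to 3′. The set had such entries for 32 of its 42 genes. Capitals mark the motifs searched on both strands, and here none were found.
TNS3: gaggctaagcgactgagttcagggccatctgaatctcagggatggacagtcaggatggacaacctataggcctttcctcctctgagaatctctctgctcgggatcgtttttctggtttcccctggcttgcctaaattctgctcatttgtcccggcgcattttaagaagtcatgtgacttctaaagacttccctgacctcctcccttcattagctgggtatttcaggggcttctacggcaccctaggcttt
The motifs were the GC box bound by Sp1 (GGGCGG), the TATA box (TATAAA) and the AP-1 site (TGANTCA), which were present in 42.6%, 10.7% and 6.57% of the 35116 windows of this length before annotated starts. Of this sequence 50.4% was G or C. The array does not say which of the 3 starts is used in these cells.

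ITGA2 encodes the α2 subunit of the collagen receptor, and the membranes of the study's migration chambers were coated with type I collagen. Its log2 signal was 8.93, 9.10 and 9.15 on LAP2β arrays 1 to 3, against 9.59, 9.63 and 9.56 on mock arrays 1 to 3. Every LAP2β array lay below every mock array, at 9.06 ± 0.12 in LAP2β cells and 9.59 ± 0.04 in mock cells (SD, n = 3 each). This was a difference of -0.53 on the log2 scale (SE 0.09, 95% interval -0.73 to -0.33, limma adjusted p = 0.0134), so ITGA2 was 1.45-fold lower in the LAP2β line. It did not pass the test without LAP2β replicate 1 (adjusted p = 0.0517), LAP2β replicate 2 (0.0572) or mock replicate 2 (0.0984), nor by the methods' t-test after adjustment (0.153), and its adjusted p over all alternatives ran from 0.00223 to 0.153. The log2 fold change stayed between -0.67 and -0.47.

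The 250 bases before the only annotated start of ITGA2, on the plus strand of GRCh38.p14 at chr5:52989102-52989351, are shown in the same way because ITGA2 was the gene that fell.
ITGA2: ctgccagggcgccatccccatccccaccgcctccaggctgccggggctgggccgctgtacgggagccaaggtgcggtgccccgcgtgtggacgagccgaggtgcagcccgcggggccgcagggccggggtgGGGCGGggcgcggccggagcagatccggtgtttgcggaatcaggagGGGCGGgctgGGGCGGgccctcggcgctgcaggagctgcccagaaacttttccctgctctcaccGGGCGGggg
This sequence held 4 GC boxes, in capitals, and no match to the TATA box or the AP-1 site, and 76.4% of it was G or C against a median of 58% over all windows. A match is a description of the letters only.

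**Figure D2:**
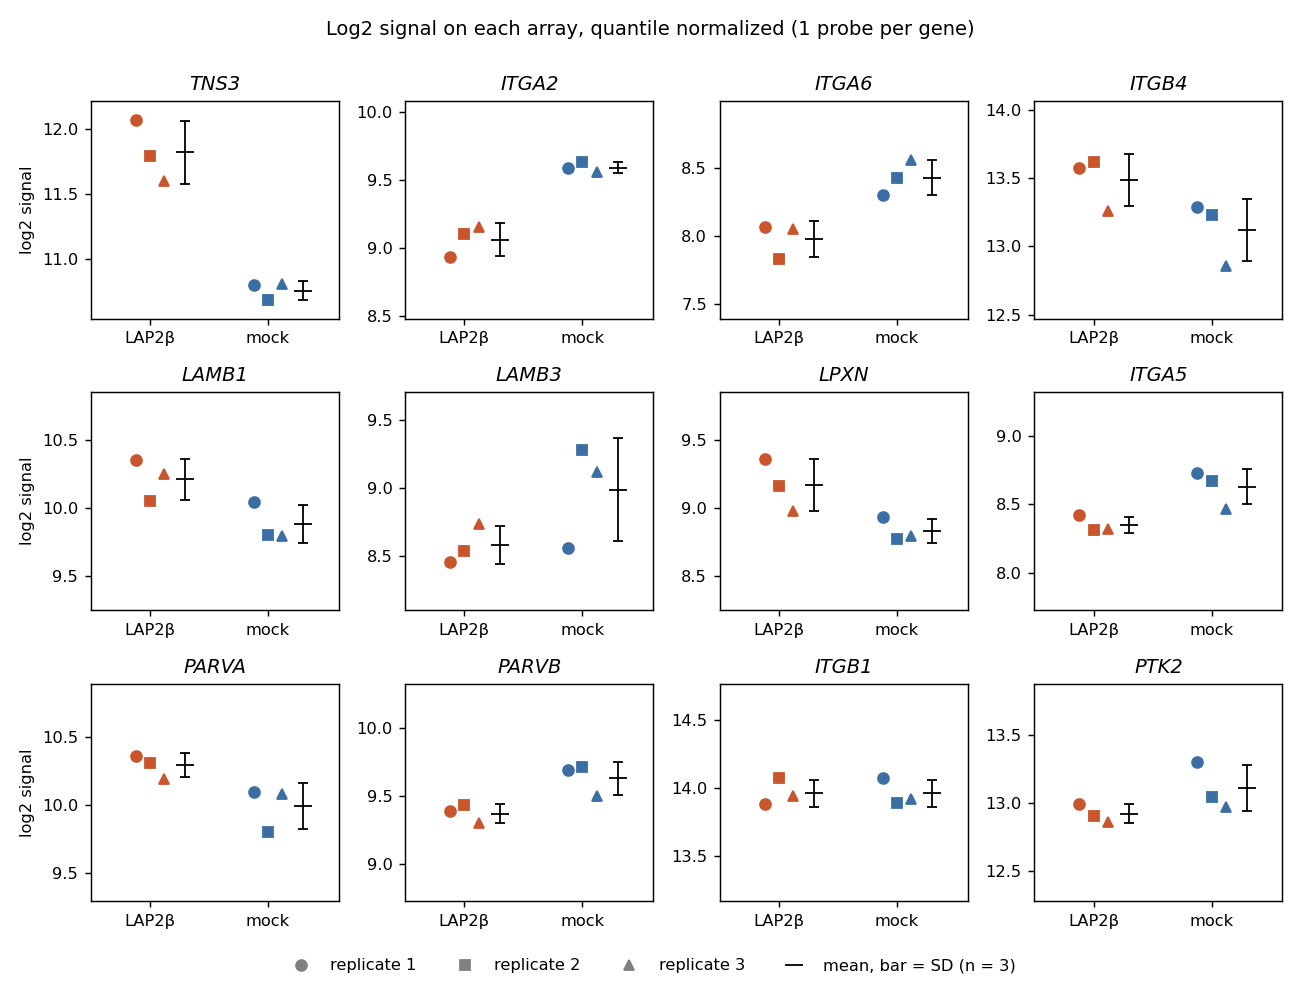
Log2 signal of 12 adhesion genes on each array, LAP2β left and mock right, with a marker shape per replicate number and the group mean with SD (n = 3). TNS3 is higher on all LAP2β arrays (11.60 to 12.07) than on mock arrays (10.69 to 10.81), ITGA2 is lower on all of them, and ITGB1 overlaps.

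Of the other integrin α subunits, 5 were tested and 4 of these had a log2 fold change below 0, as did 5160 of all 9905 genes. The same 4 were below 0 with median scaling and without normalization. Those settings lower the median of all probes, to -0.13 and -0.14, so they cannot test a sign below 0. ITGA6, a laminin receptor subunit, had log2 signals of 8.07, 7.83 and 8.05 on LAP2β arrays 1 to 3, against 8.30, 8.43 and 8.56 on mock arrays 1 to 3. The groups did not overlap, although the signals were close to background. Its log2 fold change was -0.45 (SE 0.10, limma adjusted p = 0.0651, and 0.0107 in the paired fit), and -0.82 after background correction by neqc. ITGA6 also passed the test with median scaling, without normalization and without mock replicate 1, and its adjusted p over all alternatives ran from 0.0107 to 0.288. The other probe of ITGA6 was not above background on any array. ITGA5, the fibronectin receptor subunit, had signals of 8.42, 8.31 and 8.32 on LAP2β arrays 1 to 3, against 8.73, 8.67 and 8.47 on mock arrays 1 to 3. Every LAP2β array was lower, and the log2 fold change of -0.28 (95% interval -0.49 to -0.06) fell short of the threshold (limma adjusted p = 0.222). These signals too were close to background, and the log2 fold change of ITGA5 was -0.43 after neqc (limma adjusted p = 0.208). ITGA3, which pairs with ITGB1 to bind laminin, had signals of 12.98, 13.00 and 12.63 on LAP2β arrays 1 to 3, against 13.39, 12.99 and 12.60 on mock arrays 1 to 3. The groups overlapped, with the highest signal on mock array 1, and the log2 fold change was -0.12 (95% interval -0.51 to 0.27). ITGAE, the αE subunit that binds E-cadherin, had -0.06 (95% interval -0.25 to 0.13), and ITGAV, a subunit of receptors for vitronectin and fibronectin, had 0.23 (95% interval -0.13 to 0.60).

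The β subunits did not pass the test in the unpaired fit, and only 3 of 6 were above background. ITGB1, the partner of most of these α subunits, had log2 signals of 13.88, 14.07 and 13.94 on LAP2β arrays 1 to 3, against 14.07, 13.89 and 13.92 on mock arrays 1 to 3. The groups overlapped fully, and the log2 fold change was 0.00 with a 95% interval of -0.21 to 0.21. Its other tested probes, annotated to other transcripts, had 0.07 and 0.03. ITGB5, which pairs with ITGAV, had -0.10 (95% interval -0.30 to 0.09). ITGB4 had log2 signals of 13.58, 13.62 and 13.26 on LAP2β arrays 1 to 3, against 13.29, 13.23 and 12.86 on mock arrays 1 to 3. The array numbered 3 was the lowest of both groups, so the groups overlapped, while each LAP2β array lay above the mock array of its own number, by 0.29, 0.39 and 0.40. It changed by 0.36 on the log2 scale (95% interval 0.07 to 0.66, limma adjusted p = 0.249, and 0.0184 in the paired fit). Another probe of ITGB4 had 0.41 (limma adjusted p = 0.139, and 0.0126 in the paired fit), and there the groups did not overlap. The adjusted p of the ITGB4 gene over all alternatives ran from 0.0184 to 0.529, and its log2 fold change was 0.20 with median scaling and 0.18 without normalization. ITGA6 and ITGB4, which form a single receptor, thus had log2 fold changes of opposite sign, neither of which passed the test in the unpaired fit.

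**Figure D3:**
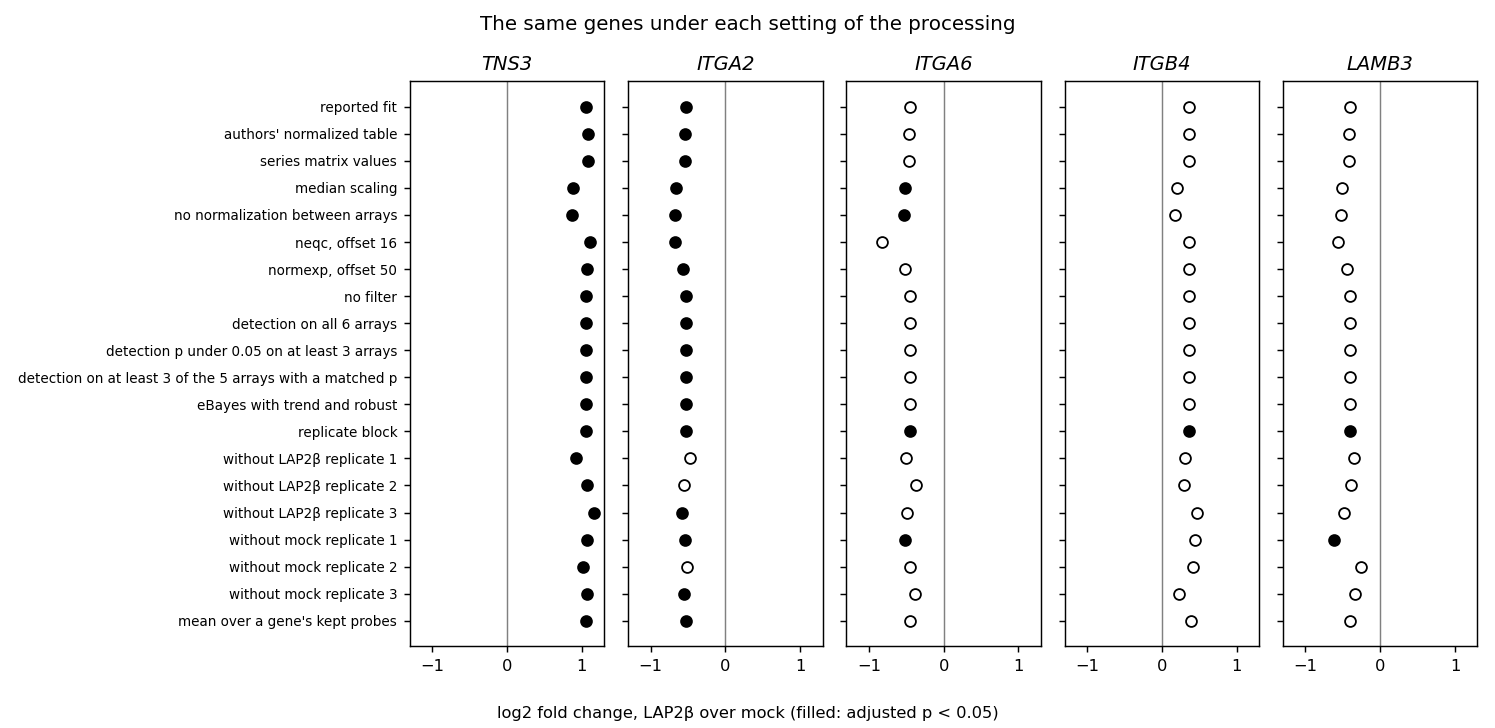
Log2 fold change, LAP2β over mock, of 5 adhesion genes under each setting of the processing, with filled points for an adjusted p under 0.05. TNS3 is filled in every setting plotted (the methods' t-test is not plotted), ITGA2 is open when LAP2β replicate 1, LAP2β replicate 2 or mock replicate 2 is left out, and ITGB4 is filled only with the replicate block.

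Laminins are trimers of an α, a β and a γ chain and are the ligands of the ITGA3, ITGA6 and ITGB4 receptors. Of the 4 chains tested, 0 passed the test at an adjusted p from limma, 1 was higher and 1 lower at an unadjusted p under 0.05, and 1 (LAMB1) passed the methods' t-test unadjusted as higher, against 6.68%, 7.09% and 6.07% of all genes. LAMB1, the β1 chain, had log2 signals of 10.35, 10.05 and 10.25 on LAP2β arrays 1 to 3, against 10.04, 9.80 and 9.79 on mock arrays 1 to 3. The lowest LAP2β array lay just above the highest mock array. Its log2 fold change was 0.34 (SE 0.11, limma adjusted p = 0.190, 0.0309 in the paired fit, and 0.0309 to 0.527 over all alternatives), or 0.19 with median scaling and 0.17 without normalization, and its other probe had 0.17 (adjusted p = 0.471). LAMB3, the β3 chain of the laminin of epithelial hemidesmosomes, had signals of 8.46, 8.54 and 8.74 on LAP2β arrays 1 to 3, against 8.56, 9.28 and 9.12 on mock arrays 1 to 3. Mock array 1 lay among the LAP2β arrays, and the other mock arrays lay above them. The log2 fold change of LAMB3 was -0.41 (SE 0.16, limma adjusted p = 0.292, and 0.0446 in the paired fit), and -0.57 after neqc (limma adjusted p = 0.392). It was -0.62 without mock replicate 1, where LAMB3 passed the test (adjusted p = 0.0114), against -0.26 without mock replicate 2 (adjusted p = 0.710). The adjusted p of LAMB3 ran from 0.0114 to 0.710 over all alternatives. The other probes of LAMB3 were not above background on any array. LAMA5, an α chain, had signals of 12.97, 12.78 and 12.44 on LAP2β arrays 1 to 3, against 12.85, 12.57 and 12.34 on mock arrays 1 to 3. The groups overlapped, and the log2 fold change was 0.14 (95% interval -0.19 to 0.48). LAMC1, the γ1 chain, had 0.13 (95% interval -0.11 to 0.38). CD151, a tetraspanin that binds laminin-binding integrins in the membrane, had 0.00 (95% interval -0.19 to 0.20) on its brightest probe, and 0.03 and 0.21 on its others.

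Of the 4 kinases, 0 passed the test at an adjusted p from limma and 0 at an unadjusted p under 0.05. ILK passed the methods' t-test unadjusted as lower, as did 6.63% of all genes. PTK2, the focal adhesion kinase, had log2 signals of 12.99, 12.90 and 12.86 on LAP2β arrays 1 to 3, against 13.30, 13.04 and 12.97 on mock arrays 1 to 3. LAP2β array 1 lay just above mock array 3, so the groups overlapped, while each LAP2β array lay below the mock array of its number. Its difference was -0.19 on the log2 scale (95% interval -0.42 to 0.04, limma adjusted p = 0.470). ILK, the integrin-linked kinase, a pseudokinase that joins β tails to parvins, had -0.15 (95% interval -0.34 to 0.04) on its brightest probe and 0.05 on another. SRC, a tyrosine kinase that acts with PTK2, had 0.04 (95% interval -0.15 to 0.23), and PTK2B, the relative of PTK2, had 0.05 (95% interval -0.14 to 0.25).

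The activators and actin linkers other than TNS3 did not pass the test. Both parvins, which bind ILK and actin, lay apart by group but in opposite directions. PARVA had log2 signals of 10.36, 10.31 and 10.19 on LAP2β arrays 1 to 3, against 10.09, 9.80 and 10.08 on mock arrays 1 to 3. PARVB had 9.39, 9.43 and 9.30 on LAP2β arrays 1 to 3, against 9.69, 9.71 and 9.50 on mock arrays 1 to 3. All LAP2β arrays were above all mock arrays for PARVA and below them for PARVB. PARVA differed by 0.30 on the log2 scale (SE 0.10, limma adjusted p = 0.230, and 0.0814 in the paired fit), with 0.26 on its other probe, but by 0.14 with median scaling, 0.12 without normalization and 0.20 without mock replicate 2. PARVB differed by -0.26 (SE 0.09, limma adjusted p = 0.234, and 0.0729 in the paired fit), or by -0.40 with median scaling and -0.41 without normalization. TLN1 and TLN2, the talins that activate integrins, had 0.03 (95% interval -0.16 to 0.22) and 0.04 (95% interval -0.18 to 0.25). VCL, vinculin, had -0.17 (95% interval -0.48 to 0.14), and FERMT1, the kindlin of epithelial cells, had -0.20 (95% interval -0.45 to 0.05).

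All 7 adaptors and scaffolds tested had a log2 fold change above 0, as did 4745 of all 9905 genes. The 7 values ran from 0.02 to 0.34. With median scaling 5 of the 7 were below 0, and 6 without normalization. Those settings lower the median of all probes, to -0.13 and -0.14, so the sign of the smaller values depends on the scaling. Of the 7, 0 passed the test at an adjusted p from limma, while 1 did at an unadjusted p under 0.05 and 1 by the methods' t-test unadjusted, both as higher, against 6.68% and 6.07% of all genes. Both counts are LPXN, leupaxin, a LIM protein of the paxillin family. It had log2 signals of 9.36, 9.16 and 8.98 on LAP2β arrays 1 to 3, against 8.93, 8.77 and 8.79 on mock arrays 1 to 3. The lowest LAP2β array lay just above the highest mock array. LPXN differed by 0.34 on the log2 scale (SE 0.11, limma adjusted p = 0.190, 0.0347 in the paired fit, and 0.0347 to 0.515 over all alternatives), or by 0.22 with median scaling and 0.20 without normalization. The other paxillin relatives had smaller values, PXN itself 0.11 (95% interval -0.09 to 0.31) and TGFB1I1 0.14 (95% interval -0.06 to 0.35). ZYX, a LIM protein of tensed adhesions, had 0.09 (95% interval -0.12 to 0.29). BCAR1 and CRKL, which relay signals from PTK2 and SRC, had 0.04 (95% interval -0.25 to 0.33) and 0.02 (95% interval -0.17 to 0.20), and LIMS1, which binds ILK, had 0.09 (95% interval -0.16 to 0.33).

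Several probes of a gene give a further reading on the same RNA. Of the 13 genes with more than 1 tested probe, 10 had probes of like sign. ITGB5, ILK and TGFB1I1 had probes of opposite sign, none past an unadjusted p of 0.05. The probes of ITGB4 (0.36 and 0.41) and of PARVA (0.30 and 0.26) lay close together.

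**Figure D4:**
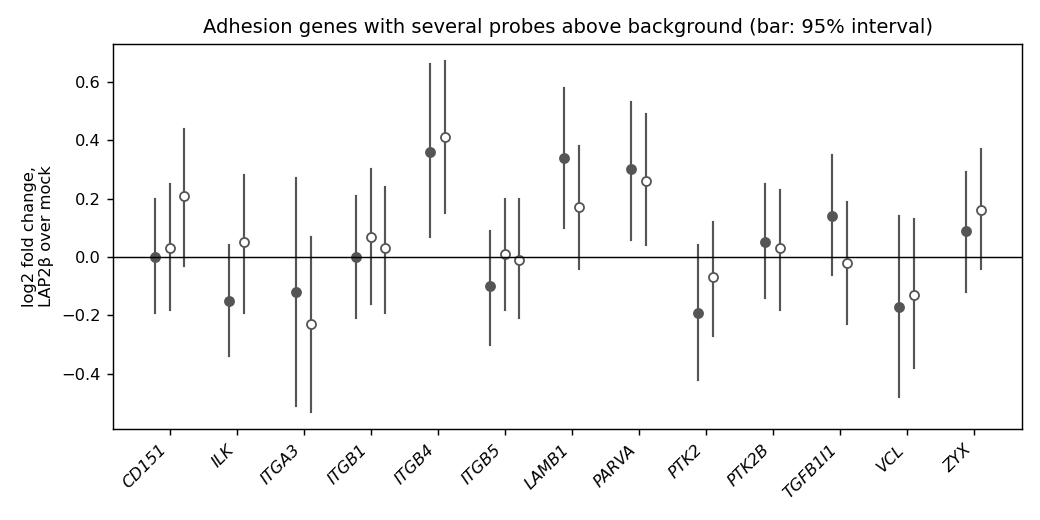
Log2 fold change, LAP2β over mock, of each tested probe of the 13 adhesion genes with several, with the 95% interval from limma as bars and the brightest probe filled. The probes of ITGB4 and PARVA lie above 0 with intervals that do not reach it, and those of ITGB1 lie between 0.00 and 0.07.

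The remaining 8 genes were not well above background on any array and were not tested: the integrin subunits ITGA1, ITGB3, ITGB6 and ITGB8, the kindlin FERMT2, the tensins TNS1 and TNS4, and NEDD9, a scaffold related to BCAR1. Their 11 probes had log2 signals of 6.55 to 7.73, while the lowest signals above background on an array were 7.70 to 7.79. All 48 tested probes were above background on at least 2 arrays of each group, and 46 of them on all 6 arrays, so no gene entered the test through 1 group alone.

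A wider list of 93 other genes of integrin adhesion, among them further integrins and laminins, actin crosslinkers, Src family kinases and tetraspanins, gave 52 tested genes. Of these, 0 rose and 1 fell at an adjusted p from limma, and 6 were higher and 1 lower at an unadjusted p under 0.05, while the methods' t-test unadjusted gave 7 higher and 2 lower. The shares of all genes were 1.17% and 0.616% at the adjusted p, 6.68% and 7.09% at the unadjusted p, and 6.07% and 6.63% by the methods' t-test. The median log2 fold change was 0.04. LYN, a Src family kinase, was the gene that fell. Its log2 signal was 11.15, 11.20 and 10.93 on LAP2β arrays 1 to 3, against 11.47, 11.64 and 11.57 on mock arrays 1 to 3. The groups did not overlap, and the log2 fold change was -0.46 (SE 0.10, limma adjusted p = 0.0472, and 0.00629 to 0.240 over all alternatives). LYN lost its call without LAP2β replicate 1 (0.0847), 2 (0.0900) or 3 (0.173), without mock replicate 2 (0.237) or 3 (0.117), after neqc (0.124) or normexp (0.0618), with detection on all 6 arrays (0.0525) and by the methods' t-test after adjustment (0.240), while its log2 fold change stayed between -0.64 and -0.38 over all alternatives. In the paired fit, 3 further genes passed, which made 2 higher and 2 lower of the 52, against 3.55% and 2.88% of all genes. DOCK1 had log2 signals of 9.46, 9.32 and 9.36 on LAP2β arrays 1 to 3, against 8.98, 8.92 and 9.05 on mock arrays 1 to 3, with no overlap. DOCK1, an activator of Rac that acts downstream of BCAR1, had a log2 fold change of 0.40 (limma adjusted p = 0.0554, 0.0118 in the paired fit, and 0.0118 to 0.263 over all alternatives). ITGB2, the β subunit of leukocyte integrins, had 0.37 (adjusted p = 0.107, 0.0293 in the paired fit, and 0.0293 to 0.399 over all alternatives). ARHGEF6, a Rac exchange factor that binds parvins, had -0.40 (adjusted p = 0.393, 0.0170 in the paired fit, and 0.0170 to 0.652 over all alternatives), and -0.20 without mock replicate 1.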

How the data were processed

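Arrays were Illumina Human HT-12 v4 bead chips, 3 of the LAP2β line and 3 of mock cells. The authors processed them with BeadStudio and deposited intensity values before and after quantile normalization, with detection p-values. The intensity values are linear, although the methods name a log2 transformation, and background subtraction is not stated in the sources used here. The series matrix repeats the normalized values. The same detection p-value column name, in the tables before and after normalization, matched no sample, and these 2 columns were left out. They may belong to mock replicate 3, which had no matched column. Detection on mock replicate 3 was therefore set from its signal ranks and the other 5 arrays.

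Intensities before normalization were quantile normalized, log2 transformed and fitted with lmFit and eBayes in limma 3.58.1 (R 4.3.3), LAP2β against mock, with Benjamini-Hochberg adjustment over all 13323 tested probes. Intervals are at 95%, unadjusted, and the number of arrays limits their precision. Symbols were updated by gene ID through a table of GRCh38.p14. All 42 genes were accounted for. Values on every array were given for those past the threshold with or without pairs, those at an unadjusted p under 0.05, the brightest integrin α subunit, β subunit, laminin chain and cytoplasmic protein, and those with probes of opposite direction at an unadjusted p under 0.05, of which there were none. Others were given by log2 fold change and 95% interval. Of the other adhesion genes, those past the threshold were named, and those past it only with pairs were named with both adjusted p. The genes, lists and tests were chosen with earlier results of these data known. The fit was tested on simulated data.

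Same-numbered arrays deviated together (r = 0.544, 0.228 and 0.368 across the tested probes, each array correlating best with its own number). The margin was small for LAP2β array 2, which had r = 0.158 with mock array 3. A fit with the numbers as pairs was an alternative to the unpaired fit reported, and the paired value is given where it changes a call. The labels do not say what a number shares. Alternatives were the authors' normalized table, the series matrix, median scaling, no normalization, neqc (offset 16), normexp (offset 50), 4 other detection filters, a robust eBayes with a trend, the methods' t-test, the replicate block, the mean over a gene's probes, and each array left out in turn.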

Additional observations from a re-analysis of the deposited data

How the results depend on the processing

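TNS3 and ITGA2 lost theirs under the methods' t-test after Benjamini-Hochberg adjustment (log2 fold changes of 1.06 and -0.53, adjusted p = 0.153 for both, and 1 probe of all called). Leaving out each array in turn gave log2 fold changes of 0.93 to 1.16 for TNS3 and -0.58 to -0.47 for ITGA2, and 1 to 4 adhesion genes, 0 to 1 of the other adhesion genes and 100 to 281 of all probes passed the test. LAP2β replicates 1 and 2 and mock replicate 2 were those without which ITGA2 was lost, and without mock replicate 1 ITGA6 and LAMB3 passed as well.

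With the replicate block, 7 adhesion genes, 4 other adhesion genes and 821 of all probes passed, against 2, 1 and 220 without it, and the block changed no other call of a gene named here but those of the epithelial markers CDH1 and KRT8. By the methods' t-test unadjusted the counts were 8, 9 and 1616, and after adjustment 0, 0 and 1. Of all probes, 537 passed with median scaling, 521 without normalization and 145 after neqc. Of the other adhesion genes, 0 passed after neqc, after normexp or with detection on all 6 arrays, and 2 with the mean over a gene's probes. Of 640 values of single adhesion genes over 20 alternatives, 586 kept direction and side of the threshold, 9 gained a call, 5 lost it, 40 changed sign without a call on either side and 0 reversed a call. The causes were not tested. Signal over background limits the genes just above it, and ITGA6 had a log2 fold change of -0.82 after neqc, against -0.45 without background correction.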

Other observations

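Some probes that were not tested lay at the edge of background, and are given as values chosen after they were seen. A second probe of PARVB was above background on 0 of 3 LAP2β arrays and 2 of 3 mock arrays, with log2 signals of 7.42, 7.65 and 7.51 on LAP2β arrays 1 to 3, against 7.83, 7.89 and 7.39 on mock arrays 1 to 3. A further PARVB probe was above background on 1 LAP2β array and 0 mock arrays. A second probe of SRC was above background on 0 LAP2β arrays and 1 mock array. Its mean log2 signal was nonetheless higher on LAP2β arrays (7.69) than on mock arrays (7.59). The probe of ITGB6 was not well above background on any array, and its log2 signal was 6.86, 6.85 and 6.84 on LAP2β arrays 1 to 3, against 6.68, 6.74 and 6.69 on mock arrays 1 to 3.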
